A study of Homo sapiens with 14 samples.

Results

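TMPRSS2, FKBP5, UAP1, SGK1 and NDRG1 are 5 genes known for induction by androgens in prostate cells, and were followed here by symbol among the 14547 named genes of a 2-colour microarray. Each of the 5 was read by 1 probe. The cells were LNCaP, an established androgen-responsive line from a human prostate cancer metastasis. All cultures, controls included, were grown for 36 h and then deprived of steroids for 48 h in charcoal-stripped serum. For the next 24 h they received 1 nM R1881 (methyltrienolone, a synthetic androgen), 25 µg/ml cycloheximide (CHX, an inhibitor of protein synthesis) given at the same time as 1 nM R1881, 25 µg/ml CHX alone, or no addition (control). R1881, CHX plus R1881 and CHX were each compared with control on 4 arrays, from 2 culture experiments hybridised with the dyes Cy3 and Cy5 in both orientations. CHX plus R1881 was also compared directly with CHX on 2 arrays, a dye swap of experiment 1.

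Androgens bind the androgen receptor, a transcription factor that attaches to DNA at androgen response elements and raises transcription of its target genes. A transcript that still responds when protein synthesis is blocked needs no newly made intermediate protein, which is why CHX is combined with hormone to look for direct targets. CHX itself also changes many transcripts, among them short-lived RNAs that decay as they are translated. TMPRSS2 encodes a serine protease of the cell membrane, and its androgen-driven promoter is the one fused to ETS genes in many prostate cancers. FKBP5 encodes a co-chaperone that works with HSP90 on steroid receptors. UAP1 makes UDP-N-acetylglucosamine, the sugar donor of glycosylation. SGK1 is a kinase related to AKT and named for its induction by serum and glucocorticoids, and NDRG1 is a stress- and hypoxia-induced protein that SGK1 phosphorylates.

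The androgen response element has the half-site AGAACA, and 2 half-sites facing each other over 3 bases give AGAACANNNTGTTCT. RefSeq promoter windows (GRCh38.p14) were taken from 250 bases before to 30 bases after an annotated start. They were read for 3 of the 5 genes, FKBP5, UAP1 and SGK1, with 8 windows in all. TMPRSS2 had no window in the reference used, and NDRG1 was left out by choice. Searched on both strands, the half-site stood in 2 of the 8 windows and in 13.8% of 35116 windows of all genes, while the full element stood in 0 of the 8 and in 0.00285% of all. A match is a string of letters and not a measured binding site, and each full element also holds half-sites. The windows with a match are shown with the half-site in capitals, beside the first UAP1 window, which has none. The other windows of these 3 genes had no half-site. Which start LNCaP cells use is not known here, and a link between half-site and R1881 response was not tested.
FKBP5, chr6:35728554-35728833, minus strand: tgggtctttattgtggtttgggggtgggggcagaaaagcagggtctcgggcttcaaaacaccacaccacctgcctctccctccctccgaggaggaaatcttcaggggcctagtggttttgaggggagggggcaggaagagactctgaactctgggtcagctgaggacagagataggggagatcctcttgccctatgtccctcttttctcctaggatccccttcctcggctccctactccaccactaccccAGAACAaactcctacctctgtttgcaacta
UAP1, chr1:162561281-162561560, plus strand: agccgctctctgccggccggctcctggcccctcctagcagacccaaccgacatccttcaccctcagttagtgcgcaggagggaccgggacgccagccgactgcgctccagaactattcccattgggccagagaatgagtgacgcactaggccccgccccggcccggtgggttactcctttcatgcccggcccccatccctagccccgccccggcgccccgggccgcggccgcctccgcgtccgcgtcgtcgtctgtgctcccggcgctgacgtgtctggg
SGK1, chr6:134177832-134178111, minus strand: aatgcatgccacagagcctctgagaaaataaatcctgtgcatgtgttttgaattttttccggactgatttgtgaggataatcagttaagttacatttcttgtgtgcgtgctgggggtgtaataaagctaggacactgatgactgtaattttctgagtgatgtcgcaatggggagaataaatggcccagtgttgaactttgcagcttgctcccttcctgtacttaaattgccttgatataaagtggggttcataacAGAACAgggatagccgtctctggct
The half-site began at base 1 from the annotated start in the FKBP5 window and at base 6 in the SGK1 window. The GC content of these windows was 55.7% for FKBP5, 71.1% for UAP1 and 42.5% for SGK1.

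All values are log2 ratios, written so that a value above 0 means more RNA in the treated sample. The deposited ratios do not state their direction, so every array was multiplied by −1. That choice rested on 2 lists without the 5 genes. As deposited, 30 other androgen-induced genes had a median of −0.22 in R1881 versus control, and 24 immediate-early transcripts had a median of −1.15 in CHX versus control. A direction given here is thus the likely one and is not certain. Arrays with CHX against control spread more widely over all probes (SD 0.57 to 0.62) than the R1881 arrays (0.18 to 0.25) or the direct arrays (0.13 and 0.20). Over all probes the dye-swapped arrays of an experiment correlated at r = 0.134 and 0.216 for R1881, at 0.83 and 0.893 for CHX plus R1881, at 0.788 and 0.882 for CHX and at −0.0427 for the direct arrays. Each culture yields 1 RNA sample, so a change in the share of cells that express a gene and a change in RNA per cell cannot be told apart. Nothing in the files gives the amount of RNA on an array, so a ratio says nothing about how abundant a transcript is, and the markers of LNCaP cells could not be checked as levels.

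R1881 versus control asks which transcripts respond to the androgen. TMPRSS2 had log2 ratios of 1.84 and 1.72 in experiment 1 and 1.57 and 1.49 in experiment 2, the highest of the 5 genes on every array. It rose by 1.65 ± 0.17 (SD, n = 2 experiments), a 3.15-fold change, with a 95% interval of 1.46 to 1.85 and a limma adjusted p of 0.0202. It ranked 3 of 14547 genes by the size of the mean in either direction. TMPRSS2 was the single member called, 1 of 5, and also the single gene called among all, which makes 0.00687% of genes. The call was lost when either experiment of R1881 was left out (1.53 and adjusted p = 0.0947 without experiment 1, 1.78 and adjusted p = 0.27 without experiment 2), and also without any 1 experiment of the other treatments (adjusted p 0.0501 to 0.183).

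FKBP5 and UAP1 came next and lay close together. FKBP5 had 0.62 and 0.59 in experiment 1 and 0.88 and 0.66 in experiment 2, with a mean of 0.69 ± 0.12 (95% interval 0.41 to 0.97, limma adjusted p = 0.261). UAP1 had 0.77 and 0.58 in experiment 1 and 0.66 and 0.63 in experiment 2, with a mean of 0.66 ± 0.02 (95% interval 0.13 to 1.19, limma adjusted p = 0.661). That UAP1 interval also carries its spread with CHX (SD 0.38) and with CHX plus R1881 (SD 0.57). With R1881 alone in the fit the limma adjusted p was 0.167 for UAP1 and 0.167 for FKBP5. The arrays of these genes overlapped each other, and all lay below those of TMPRSS2. By the size of the mean in either direction FKBP5 ranked 32 and UAP1 ranked 39 of 14547 genes. FKBP5 and UAP1 depended on the scaling, as did TMPRSS2 (2.93 with the arrays scaled to 1 spread, 2.66 with quantile-normalized arrays). With the arrays scaled to 1 spread FKBP5 was 1.18 (limma adjusted p = 0.0291) and UAP1 1.15 (adjusted p = 0.0847). With quantile-normalized arrays FKBP5 was 1.69 (adjusted p = 0.00329) and UAP1 1.64 (adjusted p = 0.00849). These settings widen the R1881 arrays and called 89 and 744 of all genes with R1881, against 1 in the main fit.

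NDRG1 was lower, with 0.53 and 0.43 in experiment 1 and 0.28 and 0.24 in experiment 2 (mean 0.37 ± 0.16, 95% interval 0.10 to 0.63, limma adjusted p = 0.618). Its arrays lay above 0 and below all arrays of FKBP5 and UAP1. SGK1 had 0.01 and −0.05 in experiment 1 and 0.03 and 0.04 in experiment 2 (mean 0.01 ± 0.04, 95% interval −0.49 to 0.50, limma adjusted p = 0.999). The SGK1 ratio was thus near 0 on each of the 4 arrays, and induction by the androgen was not seen for it here. The interval reaches 0.50 and also carries the spread of SGK1 with CHX (SD 0.47) and with CHX plus R1881 (SD 0.43). Of the 5 genes, 4 were above 0 on all 4 arrays, as were 11.7% of all genes (13% were below 0 on all 4), and all 5 had a mean above 0, as did 50.0%. KLK3, the gene of prostate-specific antigen, had 0.98 ± 0.01, and its neighbour KLK2 had 0.77 ± 0.17, which places both between TMPRSS2 and FKBP5.

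**Figure D1:**
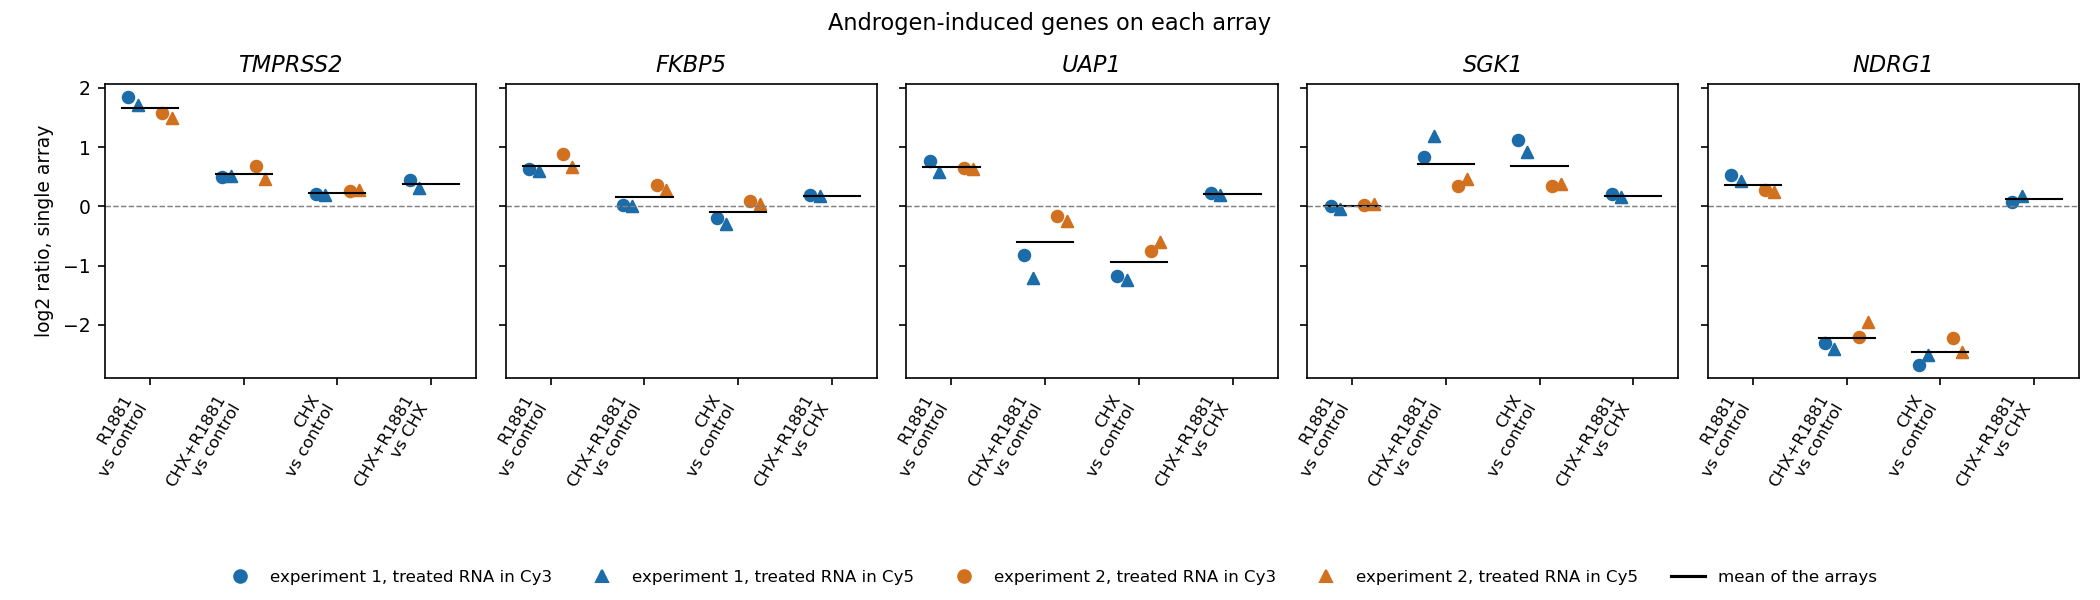
Log2 ratio on each array (vertical axis) for the 5 genes in the 4 comparisons (horizontal axis), with colour for the experiment, symbol for the dye of the treated RNA and a bar for the mean of the arrays. TMPRSS2 was between 1.49 and 1.84 with R1881 alone, SGK1 stayed near 0 there, and NDRG1 was below −1.9 on all 8 arrays with CHX against control.

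CHX versus control shows where the transcripts stood under the inhibitor before androgen is considered. NDRG1 had −2.67 and −2.51 in experiment 1 and −2.22 and −2.45 in experiment 2. It fell by 2.46 ± 0.18 on the log2 scale (limma adjusted p = 0.000136), a 5.52-fold lower level with CHX, and ranked 74 of 14547 genes by size in either direction. UAP1 had −1.17 and −1.25 in experiment 1 against −0.74 and −0.61 in experiment 2. It fell by 0.94 ± 0.38 (limma adjusted p = 0.018), and the experiments did not overlap. Without experiment 1 of CHX the value was −0.68 and was no longer called (adjusted p = 0.148).

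SGK1 went the other way with CHX. Its ratios were 1.12 and 0.93 in experiment 1 and 0.34 and 0.38 in experiment 2, so experiment 1 was again the stronger one. SGK1 rose by 0.69 ± 0.47 (1.61-fold, limma adjusted p = 0.0408), a call kept in 9 of 16 alternative settings. It was lost, among others, without experiment 1 of CHX (0.36) and without either experiment of R1881. The call was also lost with quantile-normalized arrays (0.52, limma adjusted p = 0.0649) and with the arrays scaled to 1 spread (0.57, adjusted p = 0.0625). TMPRSS2 had 0.21 and 0.19 in experiment 1 and 0.26 and 0.28 in experiment 2, with a mean of 0.23 ± 0.05 (limma adjusted p = 0.0614). FKBP5 had −0.19 and −0.30 in experiment 1 and 0.10 and 0.04 in experiment 2, with opposite signs in the experiments and a mean of −0.09 ± 0.22 (limma adjusted p = 0.59). The members called were thus 1 that rose and 2 that fell, 3 of 5, against 38.0% of all genes called with CHX, so that being called there does not set the 5 genes apart. Values above 0 were found for 2 of 5 members and 50.4% of all genes.

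CHX plus R1881 versus control measures both treatments together and shares its kind of control with the other comparisons. TMPRSS2 had 0.50 and 0.51 in experiment 1 and 0.68 and 0.47 in experiment 2. It rose by 0.54 ± 0.05 (1.46-fold, limma adjusted p = 0.00341), but was not called with quantile-normalized arrays (0.42, adjusted p = 0.122) or with the arrays scaled to 1 spread (0.47, adjusted p = 0.331). FKBP5 had 0.03 and 0.00 in experiment 1 and 0.36 and 0.28 in experiment 2 (mean 0.17 ± 0.21, limma adjusted p = 0.308). UAP1 had −0.82 and −1.20 in experiment 1 and −0.16 and −0.24 in experiment 2 (mean −0.61 ± 0.57, limma adjusted p = 0.0747). UAP1 was −1.01 and called without experiment 2 of that treatment (adjusted p = 0.0223), and −0.20 and not called without experiment 1 (adjusted p = 0.561). Both genes were higher in experiment 2 than in experiment 1, as they were with CHX alone.

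SGK1 had 0.84 and 1.20 in experiment 1 and 0.34 and 0.46 in experiment 2 with CHX plus R1881. It rose by 0.71 ± 0.43 (limma adjusted p = 0.0379), a call kept in 10 of 16 alternative settings. The call was lost, among others, without experiment 1 of that treatment (0.40) and without either experiment of R1881. It was also lost with quantile-normalized arrays (0.55, limma adjusted p = 0.0536). NDRG1 had −2.31 and −2.40 in experiment 1 and −2.20 and −1.95 in experiment 2. It fell by 2.22 ± 0.20 (limma adjusted p = 0.000164), and all its arrays stayed far below 0 although R1881 was present. Here 2 members rose and 1 fell, 3 of 5, against 37.4% of all genes. Values above 0 were found for 3 of 5 members and 51.6% of all genes.

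R1881 in the presence of CHX is the difference CHX plus R1881 versus control minus CHX versus control, in which the control cancels. TMPRSS2 was the 1 member of 5 whose CHX plus R1881 arrays (0.47 to 0.68) all lay above its CHX arrays (0.19 to 0.28), a pattern met by 1.11% of all genes, while 0.385% had all CHX plus R1881 arrays below their CHX arrays. Its same-numbered experiments differed by 0.31 in experiment 1 and 0.31 in experiment 2, and the direct arrays gave 0.44 and 0.31. The difference was 0.31 on the log2 scale, or 1.24-fold, with a 95% interval of 0.04 to 0.58 (unadjusted p = 0.0326 and adjusted p = 1 in limma). The labels do not say whether same-numbered experiments share a culture.

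For FKBP5 the same difference was 0.26 in experiment 1 and 0.25 in experiment 2, with 0.19 and 0.17 on the direct arrays. Its mean was 0.26 (95% interval −0.14 to 0.65, limma adjusted p = 1), wide because the experiments differed within each treatment. For NDRG1 it was 0.23 in experiment 1 and 0.26 in experiment 2, with 0.07 and 0.18 on the direct arrays and a mean of 0.25 (95% interval −0.13 to 0.63, limma adjusted p = 1). These 2 genes therefore had nearly the same difference in both experiments, although with CHX alone FKBP5 averaged near 0 and NDRG1 far below it.

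For UAP1 the difference was 0.20 in experiment 1 and 0.47 in experiment 2, with 0.22 and 0.20 on the direct arrays (mean 0.33, 95% interval −0.41 to 1.08, limma adjusted p = 1). For SGK1 it was −0.00 in experiment 1 and 0.04 in experiment 2 (mean 0.02, 95% interval −0.68 to 0.72, limma adjusted p = 1). Its direct arrays gave 0.21 and 0.16, above the value of experiment 1 through the control. The SGK1 ratio between CHX plus R1881 and CHX thus differed between these routes, which was not tested. All 5 members were above 0 on both direct arrays, as were 26.3% of all genes (25.4% were below 0 on both), and all 5 had a difference above 0 through the control, as did 55.1%. Limma called 0 members and 0% of all genes here, while 186 of 14547 genes had an unadjusted p under 0.05. The fit takes CHX and CHX plus R1881 as independent. If their same-numbered experiments deviate together, the intervals and p-values of this difference are too large, so a missing call is weak evidence of no response.

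**Figure D2:**
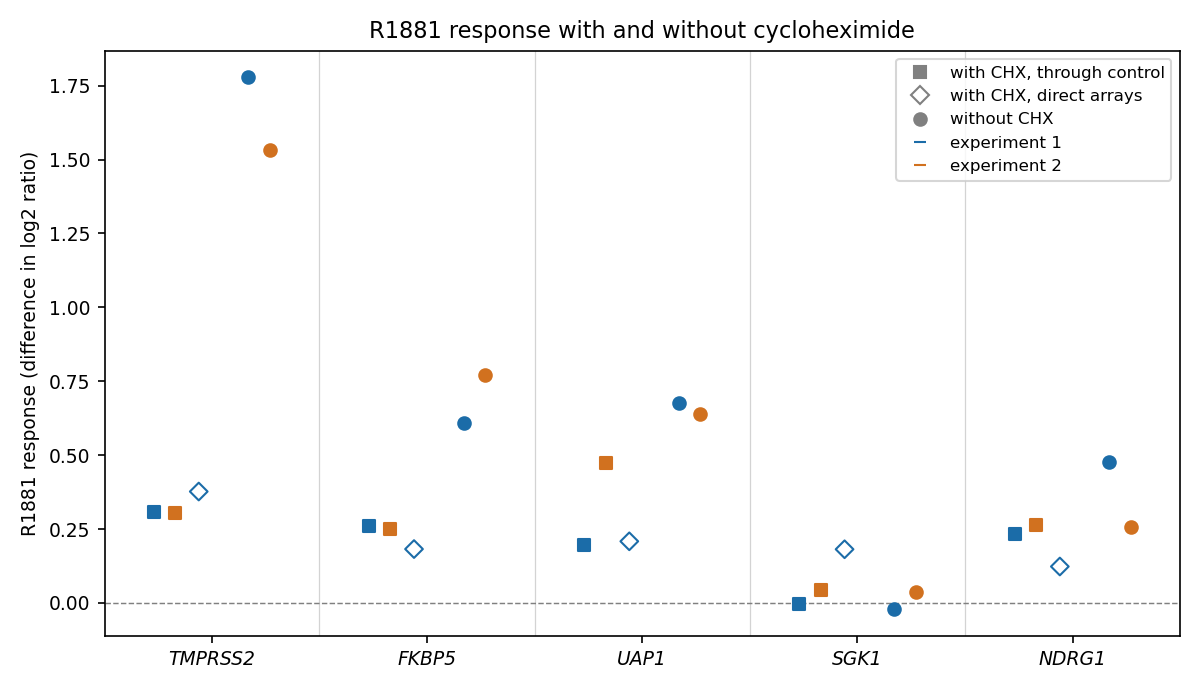
R1881 response of each gene on the log2 scale (vertical axis), with CHX through the control (squares) and on the direct arrays (diamonds) at the left, and without CHX (circles) at the right, coloured by experiment. TMPRSS2 lay at 0.31 in both experiments with CHX through the control, at 0.38 on the direct arrays, and at 1.78 and 1.53 without CHX, while the NDRG1 points with and without CHX lay close to each other.

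The response to R1881 was set side by side with and without CHX. TMPRSS2 averaged 0.31 with CHX and 1.65 without it, and the difference, taken as without minus with CHX, was 1.35 (95% interval 1.02 to 1.68). With an unadjusted p of 8.39e-05 in limma this difference ranked 4 of 14547 genes by size in either direction, but it did not pass over all genes (adjusted p = 0.61). It was called with the direct arrays in the fit (1.31, adjusted p = 0.0404) and on 12 arrays with a random block (1.35, adjusted p = 0.000619). Neither setting adds an experiment. The 12 arrays keep the dye swaps of the same RNA extracts apart, and the direct arrays come from experiment 1. The difference was larger but not called with the arrays scaled to 1 spread (2.65, adjusted p = 0.616) or quantile-normalized (2.43, adjusted p = 0.0785). Its size thus depended on the scaling. Both settings widen the R1881 arrays and narrow the CHX arrays, so a larger difference follows largely from the setting and is no separate result. KLK3 averaged 0.29 with CHX and 0.98 without it, and KLK2 averaged 0.18 with CHX and 0.77 without it.

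FKBP5 averaged 0.26 with CHX and 0.69 without it, a difference of 0.43 (95% interval −0.05 to 0.92). UAP1 averaged 0.33 with CHX and 0.66 without it, a difference of 0.32 (95% interval −0.59 to 1.24). NDRG1 averaged 0.25 with CHX and 0.37 without it, a difference of 0.12 (95% interval −0.34 to 0.58). SGK1 averaged 0.02 with CHX and 0.01 without it, a difference of −0.01 (95% interval −0.87 to 0.85). Each of these 4 differences had an adjusted p of 1 in limma, and the intervals leave room for a sizeable difference in either direction for UAP1, SGK1 and NDRG1. They too depended on the scaling: with the arrays scaled to 1 spread they were 0.96 for FKBP5, 0.92 for UAP1, 0.60 for NDRG1 and −0.04 for SGK1, and with quantile-normalized arrays 1.47, 1.40, 0.88 and −0.03 in the same order, none called. The difference was above 0 for 4 of 5 members and for 47.2% of all genes. Limma called 0 members and 0% of genes in this contrast, with 357 at an unadjusted p under 0.05.

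**Figure D3:**
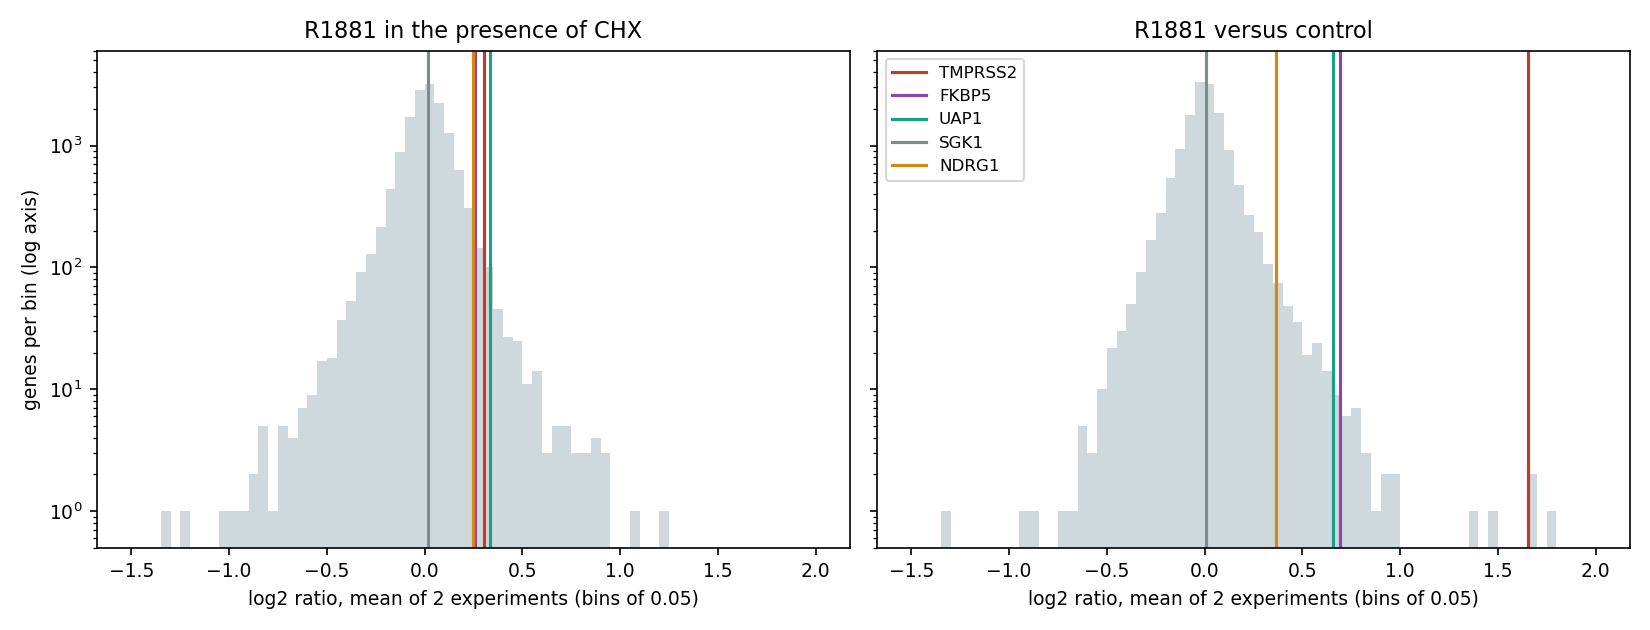
Number of named genes (vertical axis, log scale) by log2 ratio in bins of 0.05 (horizontal axis), for R1881 in the presence of CHX at the left and R1881 versus control at the right, with a line for each of the 5 genes. Without CHX the TMPRSS2 line stood at 1.65, rank 3 of 14547 genes by size, while with CHX the lines of 4 genes lay together between 0.25 and 0.33.

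The order of the 5 genes changed with the treatment. With R1881 alone it ran from TMPRSS2 through FKBP5, UAP1 and NDRG1 to SGK1, and the arrays of FKBP5 and UAP1 overlapped. With CHX alone SGK1 was highest, followed by TMPRSS2, FKBP5, UAP1 and NDRG1. The SGK1 arrays (0.34 to 1.12) stood above the TMPRSS2 arrays (0.19 to 0.28), and the NDRG1 arrays (−2.67 to −2.22) stood below those of UAP1 (−1.25 to −0.61). The root mean square difference over the 6 experiment values was smallest between TMPRSS2 and FKBP5 (0.64) and largest between SGK1 and NDRG1 (2.52).

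Genes with the nearest values over the same 6 experiment values are given as a description. For TMPRSS2 they were TRPM8, a cold-sensing ion channel of prostate cells (root mean square difference 0.36), HES6, a basic helix-loop-helix factor (0.42), and C1orf116 (0.56). TRPM8 and C1orf116 belong to the androgen-induced list that set the sign. TRPM8 had 1.80 with R1881, 0.95 with CHX plus R1881 and 0.10 with CHX, and C1orf116 had 0.78, 0.77 and −0.10 in the same order. Their R1881 values in the presence of CHX were 0.86 for TRPM8 and 0.87 for C1orf116, against 0.31 for TMPRSS2.

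For FKBP5 the nearest were NT5DC3 (0.15), PARP1, a DNA repair enzyme (0.16), and ATAD2, a chromatin ATPase (0.20). The R1881 values of these 3 genes in the presence of CHX were 0.03, 0.06 and −0.01. For UAP1 the nearest were TRIP13, a mitotic checkpoint ATPase (0.17), ARHGAP11A (0.20) and WDHD1, a replication factor (0.21). For NDRG1 they were SPC24, a kinetochore subunit (0.17), UBE2T, a ubiquitin-conjugating enzyme of DNA repair (0.21), and TMEM97 (0.22). For SGK1 the nearest were ERVH48-1 (0.05), TP63, a p53 family factor (0.06), and TWIST1, a transcription factor (0.07).

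**Figure D4:**
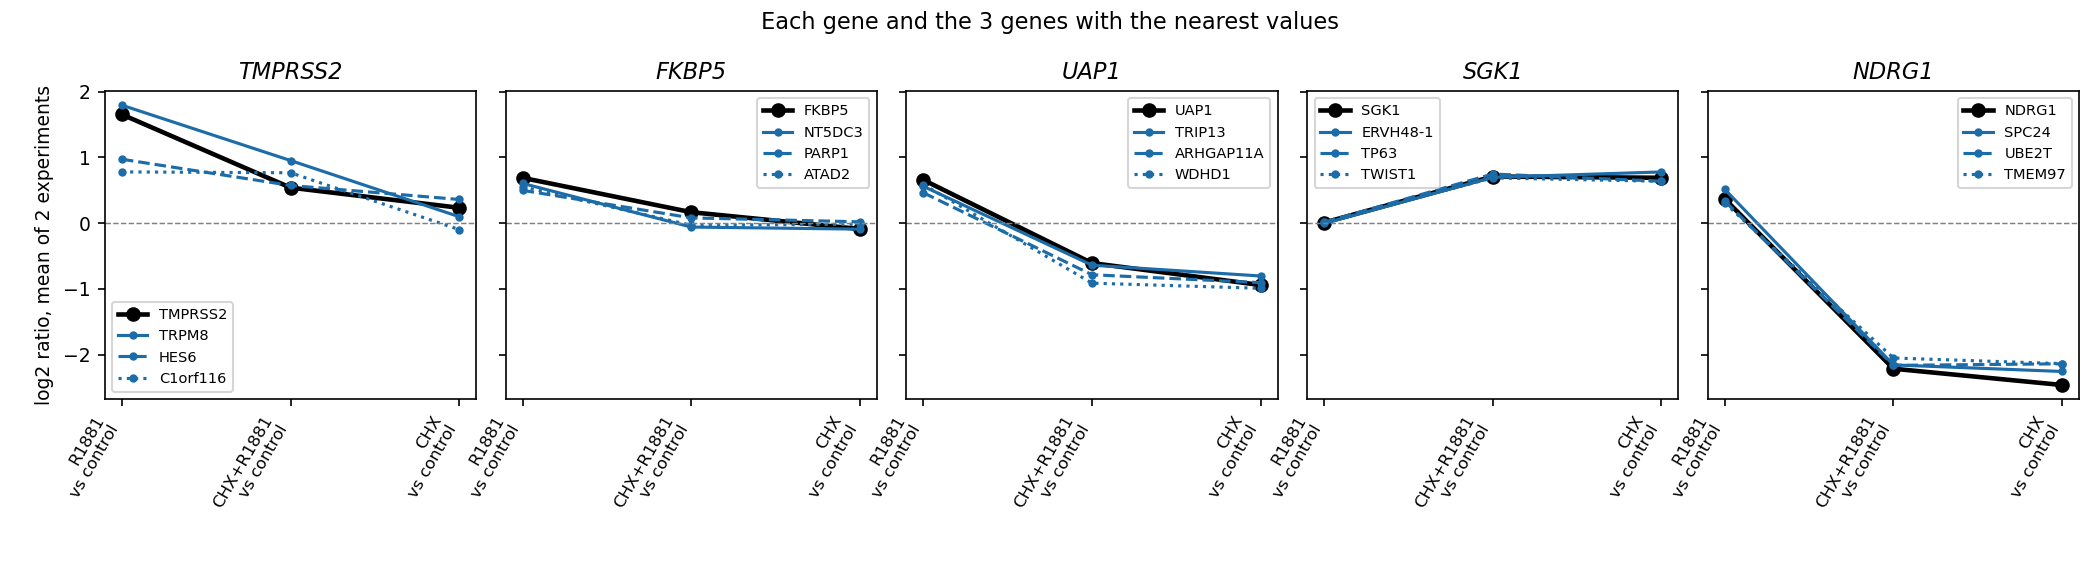
Mean log2 ratio of 2 experiments (vertical axis) in the comparisons of R1881, CHX plus R1881 and CHX with control (horizontal axis) for each gene (black) and the 3 genes with the nearest values (blue), with lines drawn to link values of 1 gene. NDRG1 and its nearest genes were above 0 with R1881 and below −2 with both CHX treatments, while SGK1 and its nearest genes were near 0 with R1881 alone.

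Genes that work beside the 5 were read from lists, with the 5 themselves left out. No gene of these lists was called in R1881 versus control or in R1881 in the presence of CHX. Of all genes 0.00687%, TMPRSS2 alone, were called in the first and 0% in the second. The absence of calls is thus not particular to these lists. The list medians given for R1881 versus control and for CHX versus control kept their sign with the arrays scaled or quantile-normalized. Around UAP1, 15 of 17 genes of the hexosamine pathway were measured, with a median of 0.02 in R1881 versus control and 9 of 15 above 0 (all genes, median −0.00 and 50.0% above 0). PGM3, the step before UAP1, had 0.32 ± 0.13 with R1881, and ALG13, which uses the product of UAP1, had −0.19 ± 0.13. Of all genes 20.5% rose and 17.4% fell with CHX, and 20.8% rose and 16.6% fell with CHX plus R1881. With CHX 3 of the 15 rose and 4 fell, not far from those shares: PGM3 rose by 1.11 ± 0.27, while CMAS, which activates sialic acid, fell by 1.40 ± 0.13, and AMDHD2, which removes the acetyl group from a sugar of this pathway, fell by 0.86 ± 0.29. With CHX plus R1881 2 rose and 4 fell.

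Around FKBP5, 19 of 19 genes of the steroid receptor chaperone cycle were measured. Their median in R1881 versus control was 0.03, with 13 of 19 above 0 beside 50.0% of all genes. FKBP4, the closest relative of FKBP5 in that cycle, had 0.15 ± 0.17 with R1881, against the 0.69 of FKBP5. With CHX 4 of the 19 rose and 8 fell, beside 20.5% and 17.4% of all genes. HSPA8, a constitutive HSP70, fell by 2.23 ± 0.07, DNAJB1, an HSP40, fell by 1.34 ± 0.22, and FKBP4 fell by 1.03 ± 0.29, while HSPA4, an HSP110-type chaperone, rose by 1.07 ± 0.16. The counts with CHX plus R1881 were again 4 and 8, beside 20.8% and 16.6% of all genes. Of 6 steroid receptor genes 5 were measured, and the glucocorticoid receptor gene NR3C1 had 0.08 ± 0.01 with R1881 and rose by 0.35 ± 0.18 with CHX.

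Around SGK1, 18 of 23 genes listed for its kinase pathway were measured. Their median in R1881 versus control was 0.06, with 11 of 18 above 0 beside 50.0% of all genes. The list holds PDK1, a symbol also in the hypoxia list, beside PDPK1, so not every listed gene need belong to that pathway. NEDD4L, a ubiquitin ligase that SGK1 phosphorylates, had 0.31 ± 0.15, and the related kinase SGK3 had 0.26 ± 0.05. With CHX 4 of the 18 rose and 3 fell, close to the 20.5% and 17.4% of all genes: NEDD4L rose by 1.74 ± 0.25, FOXO1, a transcription factor restrained by this kinase family, rose by 1.28 ± 0.06, and FOXO4, of the same family, fell by 1.40 ± 0.48. Among 11 measured genes that glucocorticoid and androgen receptors share, none was called with R1881, as held for all genes but TMPRSS2. The highest of the 11 was ZBTB16, a zinc finger factor, at 0.63 ± 0.13 (limma adjusted p = 0.188). With CHX 5 of the 11 rose and 2 fell, beside 20.5% and 17.4% of all genes, and MT2A, a metallothionein, rose by 4.08 ± 0.34, DUSP1, a MAP kinase phosphatase, by 2.32 ± 0.47, and ERRFI1, an inhibitor of EGFR signalling, by 1.62 ± 0.07. With CHX plus R1881 7 of the 11 rose and none fell, beside 20.8% and 16.6%. ZBTB16 fell by 0.46 ± 0.12 with CHX but rose by 0.31 ± 0.08 with CHX plus R1881 (limma adjusted p = 0.00637 and 0.028), and its R1881 value in the presence of CHX was 0.77 (adjusted p = 1).

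NDRG1 belongs to a small family and to the hypoxia response. NDRG3 had −0.28 ± 0.42 with CHX and NDRG4 had −0.00 ± 0.02, against the −2.46 of NDRG1. Of 21 hypoxia-induced genes 19 were measured, and with CHX 12 of them fell and 4 rose, beside 17.4% and 20.5% of all genes, with a median of −0.64 against 0.00 over all genes. DDIT4, an inhibitor of mTORC1, fell by 3.69 ± 1.5, BNIP3, a mitophagy receptor, fell by 1.46 ± 0.00, and LDHA, lactate dehydrogenase, fell by 1.44 ± 0.07. With R1881 the list had a median of 0.10 and 16 of 19 above 0, beside 50.0% of all genes. BNIP3L was at 0.85 ± 0.58, PFKFB4 at 0.68 ± 0.22 and VEGFA at −0.51 ± 0.50.

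Around TMPRSS2, 18 of 19 membrane serine proteases, inhibitors and ETS fusion partners were measured. Their median in R1881 versus control was −0.03, with 7 of 18 above 0 beside 50.0% of all genes. The highest was TMPRSS11D at 0.25 ± 0.35, against the 1.65 of TMPRSS2. With CHX 3 of the 18 rose and 4 fell, close to the 20.5% and 17.4% of all genes: SPINT2, an inhibitor of such proteases, fell by 2.22 ± 0.31, ST14, matriptase, fell by 0.90 ± 0.12, and HPN, hepsin, fell by 0.70 ± 0.07, while SPINT1 rose by 0.48 ± 0.23. Of 36 further symbols of androgen-induced genes 30 were measured, with PMEPA1 listed also under its older symbol TMEPAI. Their median in R1881 versus control, 0.22 with 24 of 30 above 0, had served to set the sign and is no result. In the presence of CHX their median was 0.10 with 23 of 30 above 0, beside 55.1% of all genes. The median there was 0.26 for the 5 genes and 0.01 for all genes.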

How the data were processed

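The deposited table gives 1 log ratio per probe and array, 27648 probes on 14 arrays, with 0 missing values. The deposited values were taken as log2 ratios made by the authors from Cy3 and Cy5 signals of amplified RNA, per the labels; image analysis, normalization and log base are not given in the sources used here. The largest value, 5.81, would be a 6.41e+05-fold ratio in base 10. If the base were e, every value would grow by 1 factor and calls would stay.

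Probes were named by accession through RefSeq, else by symbol (17711 probes), and probes of a gene were averaged. The 2 arrays of a dye swap hold the same RNA extracts and were averaged, leaving n = 2 experiments a comparison. The 6 log ratios with control were fitted in limma 3.58.1 (R 4.3.3), with 3 residual and 2.57 prior degrees of freedom. Calls were made at an adjusted p of 0.05 (Benjamini-Hochberg, over 14547 genes). Ratios against the same kind of control enter the fit as independent values. The fit was run on simulated data with independent noise and changes with R1881 only. That run says nothing about deviations shared between comparisons or about the contrasts with CHX. SGK1 was found by accession under its older symbol. Without intensities no filter on dim spots was possible.

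The 5 genes and all lists were chosen with earlier results of these data known. Named partners were, for each list, those called for R1881, else the 3 with the largest R1881 value and the 3 largest CHX calls, of which some are given. Alternatives were the experiment as a block, leaving out each experiment, single dye orientations, 12 arrays with a random block, scaling, quantile normalization, the direct arrays in the fit, single probes, a dye filter and each comparison alone.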

Additional observations from a re-analysis of the deposited data

How the results depend on the processing

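Over the 25 values of the 5 genes, 360 of the 395 alternatives kept the direction and the side of the threshold, or changed sign with no call on either side, and 0 reversed a call. In 23 a call was lost and in 12 one was gained. The share of 395 understates the losses, since only a value called in the main fit can lose its call. No gene was called there for R1881 in the presence of CHX or for the difference between the R1881 responses. Leaving out an experiment of 1 treatment also cannot move the mean of another. SGK1 was called in 9 of 16 alternatives with CHX and in 10 of 16 with CHX plus R1881. TMPRSS2 was called in 14 of 16 with CHX plus R1881. NDRG1 was called in all 16 alternatives with CHX (−2.59 to −1.87) and in all 16 with CHX plus R1881 (−2.36 to −1.72). TMPRSS2 with R1881 was called in 9 of 16 (1.53 to 2.93), and not with 1 experiment left out of any comparison (adjusted p 0.0501 to 0.27) or with R1881 alone in the fit (0.153). FKBP5 with R1881 was called after scaling (1.18, adjusted p = 0.0291), after quantile normalization (1.69, 0.00329) and on 12 arrays with a random block (0.69, 0.00241), and UAP1 after quantile normalization (1.64, 0.00849). The 12 arrays keep the dye swaps of the same RNA extracts apart and add no experiment. Scaling and quantile normalization bring the R1881 and CHX arrays to 1 spread. NDRG1 with R1881 was 0.68 after the first and 1.02 after the second, with no call.

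Genes called with R1881 numbered 1, against 172 on 12 arrays, 89 after scaling, 744 after quantile normalization, 28 with the direct arrays, 2 with single probes and 0 to 1 with an experiment left out. With CHX 5521 were called, against 3420 after quantile normalization. With CHX plus R1881 5445 were called, against 3497 after quantile normalization and 3405 to 5579 with an experiment left out. For R1881 in the presence of CHX 0 were called, against 2 on 12 arrays. For the difference between the R1881 responses 0 were called, against 2 on 12 arrays, 1 after scaling, 1 after quantile normalization and 2 with the direct arrays. The cause was not tested. Over all genes, same-numbered experiments deviated together, though the labels do not say that a number marks a shared culture. The correlations were 0.292 for R1881 with CHX, 0.166 for R1881 with CHX plus R1881 and 0.564 for CHX with CHX plus R1881. The main fit does not use this, which makes its test of R1881 in the presence of CHX a cautious one. With the experiment as a block, 2 genes were called with R1881, and UAP1 was called with CHX plus R1881 (adjusted p = 0.0234). The comparison of the R1881 responses was not run on each comparison alone, since it needs all 3. Signal over background is unknown.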

Other observations

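The ratios of marker genes were read beside the 5 genes. Of 8 markers of luminal prostate cells 6 were measured; with CHX 4 fell and none rose, beside 17.4% and 20.5% of all genes. ACP3, prostatic acid phosphatase, fell by 2.89 ± 0.61 (SD, n = 2 experiments), HOXB13, a prostate homeobox gene, fell by 1.69 ± 0.19, KLK3 fell by 1.54 ± 0.19 and FOLH1, prostate-specific membrane antigen, fell by 0.55 ± 0.22. With R1881, ACP3 had −0.37 ± 0.13, HOXB13 −0.31 ± 0.16 and FOLH1 −0.48 ± 0.34 (none called), while KLK3 of the same list had 0.98 ± 0.01, the 1 of 6 above 0 and not called either. Of 5 markers of stromal, basal, endothelial and immune cells, COL1A1, KRT5, KRT14, PECAM1 and PTPRC, all lay between −0.07 and 0.01 with R1881, and with CHX KRT5 rose by 0.20 ± 0.07 and COL1A1 fell by 0.23 ± 0.03. For the 5 genes in the 3 comparisons with control, 15 groups of 4 arrays, 0 arrays stood apart from the others by Dixon's test. The arrays of a dye swap hold the same RNA extracts, so the 4 values are not independent. A group whose 2 experiments differ cannot be flagged by this test, so it does not show that the experiments were alike.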
